A study of Mus musculus with 2 samples.

Results

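The 37 genes described here mark cells that copy their DNA (17 S phase genes) and cells that prepare for and pass through mitosis (20 G2/M genes). They were taken by symbol from the deposited matrix of 31053 genes, and all 37 were found. In S phase the MCM helicase opens DNA at the origins, polymerases copy it behind the sliding clamp, and nucleotide synthesis supplies the bases. Cyclin B with its kinase then drives entry into mitosis, the spindle attaches at centromeres, and the anaphase-promoting complex marks cyclins for destruction so that the cell can divide. Transcripts of both groups come and go within each cycle, so their share of a cell's RNA is widely used to tell cycling from resting blood progenitors.

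The cells were mouse bone marrow progenitors of strain C57BL/6, sorted as Lineage-, c-Kit+ and Sca1-, a gate that keeps myeloid, erythroid and megakaryocyte progenitors and drops stem cells. There were 2 single-cell libraries, 1 labelled Runx1 KO with 7889 cells and 1 labelled Control with 6906 cells. The labels' free-text description speaks of embryos as the source, whereas the tissue and extraction entries name bone marrow of hind limbs, which is followed here. No age, no Cre driver and no number of mice is stated for the Runx1 KO library. The Control library pooled marrow of 2 mice, 1 Runx1f/f and 1 Runx1f/-, so that 1 of them carried a germline mutation of 1 Runx1 allele. A library is therefore the only replicate of its genotype. No test between genotypes was possible, and every interval below is a 95% interval that covers counting error only. Runx1 transcripts, which encode the deleted transcription factor, stood at 361 counts per 1000000 UMIs (CPM) in the KO-labelled library and 143 CPM in Control. UMIs, the molecules counted by their barcodes, come from transcript 3′ ends, and the labels do not name the deleted part, so this level checks neither label. The KO-labelled library held 145590840 UMIs (median 16092 per cell) and Control 162278272 (median 21593.5 per cell). Mitochondrial UMIs reached 10% or more in 4.12% of KO-labelled and 2.74% of Control cells, and 13 barcodes occurred in both.

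The deposited annotation sorts cells into 18 classes named by genes, and 6 of them held at least 200 cells in each library. Car1 (3003 KO-labelled and 2210 Control cells) and Hba-a2 (318 and 294) carry names of erythroid genes, and Pf4 (1782 and 222) that of a platelet chemokine. Ly86 (553 and 1326) is named by a monocyte gene, CD34 (679 and 1076) by a gene of early progenitors, and Gstm1/CD63 (657 and 621) by genes of neutrophil progenitors. Summed megakaryocyte markers reached 6821 CPM in the KO-labelled and 6605 CPM in the Control Pf4 class, and summed erythroid markers 3556 and 4893 CPM in the Hba-a2 class. In the Car1 class the erythroid markers summed to 787 CPM in the KO-labelled library and 2703 CPM in Control. In the CD34 class basophil and mast cell markers summed to 1097 and 690 CPM. Marker sums of other cell types differed between the libraries in the other classes too, and are given beside their results.

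Some sequence letters upstream of the gene starts differed in frequency between the lists, without separating them. RefSeq promoters on GRCm38.p6 were at hand for 33 of the 37 members. The cell cycle genes homology region (CHR), an element through which repressor and activator complexes time mitotic genes, was searched as TTTGAA or TTTAAA on both strands of the 250 bases before the start. It was found in 12 of 18 matched G2/M genes and 3 of 15 S phase genes, beside 28.1% of all 27025 genes with a promoter. TTTGAA alone was in 7 G2/M and 2 S phase genes (18.3% of all genes), and TTTAAA in 5 and 1 (13.7%). E2F-type letters, the kind bound by the factors that switch on replication genes, were searched as TTTCCCGC, TTTGGCGC, TTTCGCGC or TTTGCCGC. They were found in 6 S phase genes (Mcm5, Mcm6, Mcm7, Cdc6, Uhrf1 and Dtl) and in 1 G2/M gene, Cdk1, beside 2.16% of all genes. CCAAT was in 12 S phase and 16 G2/M genes, and in 37.5% of all genes. The 6 stretches printed here are the 120 bases before the RefSeq start of S phase genes with E2F-type letters (Mcm6, Dtl) and of G2/M genes with a CHR (Top2a, Cdk1, Mki67, Cdc20), all of which recur in the results. Capitals mark the CHR, E2F-type and CCAAT letters on either strand.
Mcm6: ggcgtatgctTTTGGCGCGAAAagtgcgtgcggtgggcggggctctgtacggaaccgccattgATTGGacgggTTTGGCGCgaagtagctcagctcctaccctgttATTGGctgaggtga
Dtl: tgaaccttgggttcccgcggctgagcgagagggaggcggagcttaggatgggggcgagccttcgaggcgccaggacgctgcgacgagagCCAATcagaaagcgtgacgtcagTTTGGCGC
Top2a: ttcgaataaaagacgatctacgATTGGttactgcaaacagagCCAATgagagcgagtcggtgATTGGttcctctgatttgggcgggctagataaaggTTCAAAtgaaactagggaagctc
Cdk1: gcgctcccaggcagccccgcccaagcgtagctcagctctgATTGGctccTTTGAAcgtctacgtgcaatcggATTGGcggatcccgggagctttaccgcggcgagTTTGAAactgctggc
Mki67: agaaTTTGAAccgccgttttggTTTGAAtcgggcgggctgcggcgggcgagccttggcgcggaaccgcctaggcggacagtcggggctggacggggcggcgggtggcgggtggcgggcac
Cdc20: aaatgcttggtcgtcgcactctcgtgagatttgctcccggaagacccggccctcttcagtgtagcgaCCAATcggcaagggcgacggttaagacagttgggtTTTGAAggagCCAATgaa

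All 6 lie on the minus strand: Mcm6 at chr1:128359706-128359825, Dtl at chr1:191575545-191575664, Top2a at chr11:99024190-99024309, Cdk1 at chr10:69352913-69353032, Mki67 at chr7:135716380-135716499 and Cdc20 at chr4:118437344-118437463. The capital run nearest the left end of Mcm6 is a pair of overlapping E2F-type matches on opposite strands, and no other matches overlap. The GENCODE M21 gene begins 26 bases upstream of the RefSeq start for Cdk1 and 9 bases upstream for Cdc20, so the last bases of these stretches are transcribed in that annotation. A match describes letters and does not show that a factor binds there.

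Over all cells, the KO-labelled library held slightly less S phase RNA and slightly more G2/M RNA than Control. The S phase genes summed to 1838 CPM in the KO-labelled library and 1944 CPM in Control, a ratio of 0.946 (0.941 to 0.951). The G2/M genes summed to 1967 CPM and 1795 CPM, a ratio of 1.10 (1.09 to 1.10). All 37 genes together took 0.380% of the KO-labelled and 0.374% of the Control UMIs. A gene counted as measured from 30 CPM in either library and 100 UMIs in total, and its log2 difference is that of CPM + 10. All 17 S phase genes were measured, with 16 log2 differences below 0 and a median of -0.09. Of 17 measured G2/M genes 15 were above 0, with a median of 0.13. Among all 4600 measured genes, 50.2% were above 0 and the median was 0.0011. The kinases Aurka and Plk1 and the checkpoint kinase Bub1 fell short of the minimum in the whole libraries, at 25.7 and 26.3, 24.9 and 24.5, and 21.0 and 23.8 CPM.

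No member differed by 1.5-fold in the whole libraries, where 4.28% of measured genes were that much higher and 1.65% that much lower in the KO-labelled library. At a log2 difference of 0.32 or more, 1 member was higher and 0 were lower, beside 8.93% of all genes higher and 5.24% lower. That member was Mki67, which coats mitotic chromosomes and is the usual proliferation marker, at 261 CPM in the KO-labelled library and 206 CPM in Control (ratio 1.27, log2 difference 0.33). Ube2c, the ubiquitin-conjugating enzyme of the anaphase-promoting complex, had 172 and 142 CPM (1.22, 1.19 to 1.24). Hmmr, a spindle protein, had 58.3 and 47.4 CPM (1.23, 1.19 to 1.27). At the low end of the G2/M list, Aurkb, the kinase of the chromosomal passenger complex, had 52.9 CPM in the KO-labelled library and 57.6 in Control. Cenpa, the histone variant of centromeres, had 150 and 156 CPM, and Cenpf, a kinetochore protein, 78.8 and 77.6 CPM.

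In the S phase list the lowest log2 difference was that of Cdc6, which loads the helicase onto origins, at 32.4 CPM in the KO-labelled library and 38.5 CPM in Control (ratio 0.840, 0.809 to 0.873). The helicase subunit Mcm5 had 136 and 152 CPM, and Cdc45, which activates the helicase, 31.9 and 36.2 CPM. Slbp, which binds histone mRNA, was the 1 member above 0, with 174 and 172 CPM, followed by Mcm4 (72.0 and 72.2 CPM) and Mcm3 (210 and 211 CPM). The clamp gene Pcna had 102 and 105 CPM, and Cdk1, the kinase that starts mitosis, 125 and 119 CPM. Of other genes of these pathways, 37 of 50 further replication genes were measured (10 above and 27 below 0, median -0.05), and 27 of 60 further mitosis genes (17 above and 10 below 0, median 0.02). The replication list ran between Asf1b, a histone chaperone (53.9 CPM KO-labelled, 45.8 CPM Control), with Atad2 (153 and 140 CPM) next, and at the other end Ccne1, cyclin E1 (24.4 and 32.8 CPM), and Dut, which removes dUTP (407 and 507 CPM). The mitosis list ran between Prc1, which bundles the midzone spindle (68.0 and 54.9 CPM), with Kif22 (35.4 and 30.3 CPM) next, and the Cdk subunits Cks1b (224 and 249 CPM) and Cks2 (347 and 383 CPM). G2/M members thus showed a larger sum ratio than the further mitosis genes, 1.10 against 1.009.

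**Figure D1:**
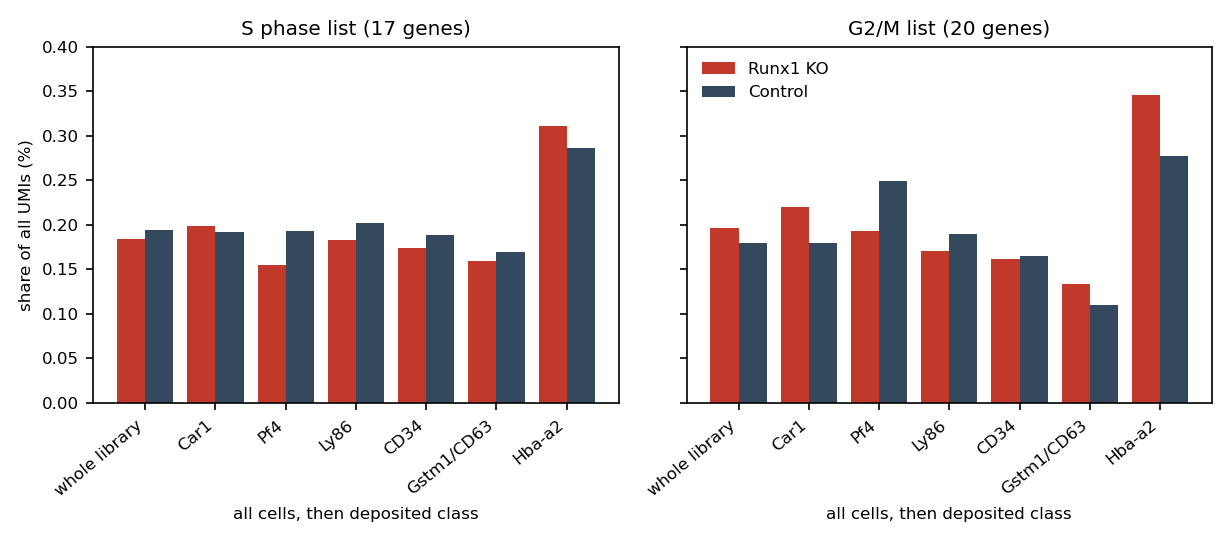
Share of all UMIs (%) that the 17 S phase genes (left) and the 20 G2/M genes (right) took in the KO-labelled library (red, left bar) and in Control (dark, right bar), over all cells and in each compared class, with 1 library per bar. The G2/M bars of Car1, Gstm1/CD63 and Hba-a2 are higher in the KO-labelled library, and both lists are lower there in Pf4, Ly86 and CD34.

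These small totals hide classes that differ in opposite directions. Of 6 classes, 3 had a higher G2/M sum in KO-labelled cells (Car1, Gstm1/CD63 and Hba-a2), and the sum was lower in Pf4, Ly86 and, by little, CD34. The S phase sum was higher in 2 classes, Car1 and Hba-a2, and lower in the other 4. Cdc6 was below 0 in each of the 4 classes that measured it, and no member measured in all 6 classes was on the same side of 0 throughout. Of the S phase genes 10 were above 0 in 2 classes, and of the G2/M genes 9 were above 0 in 4. The lowest log2 difference of a member mostly stood in Pf4.

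**Figure D2:**
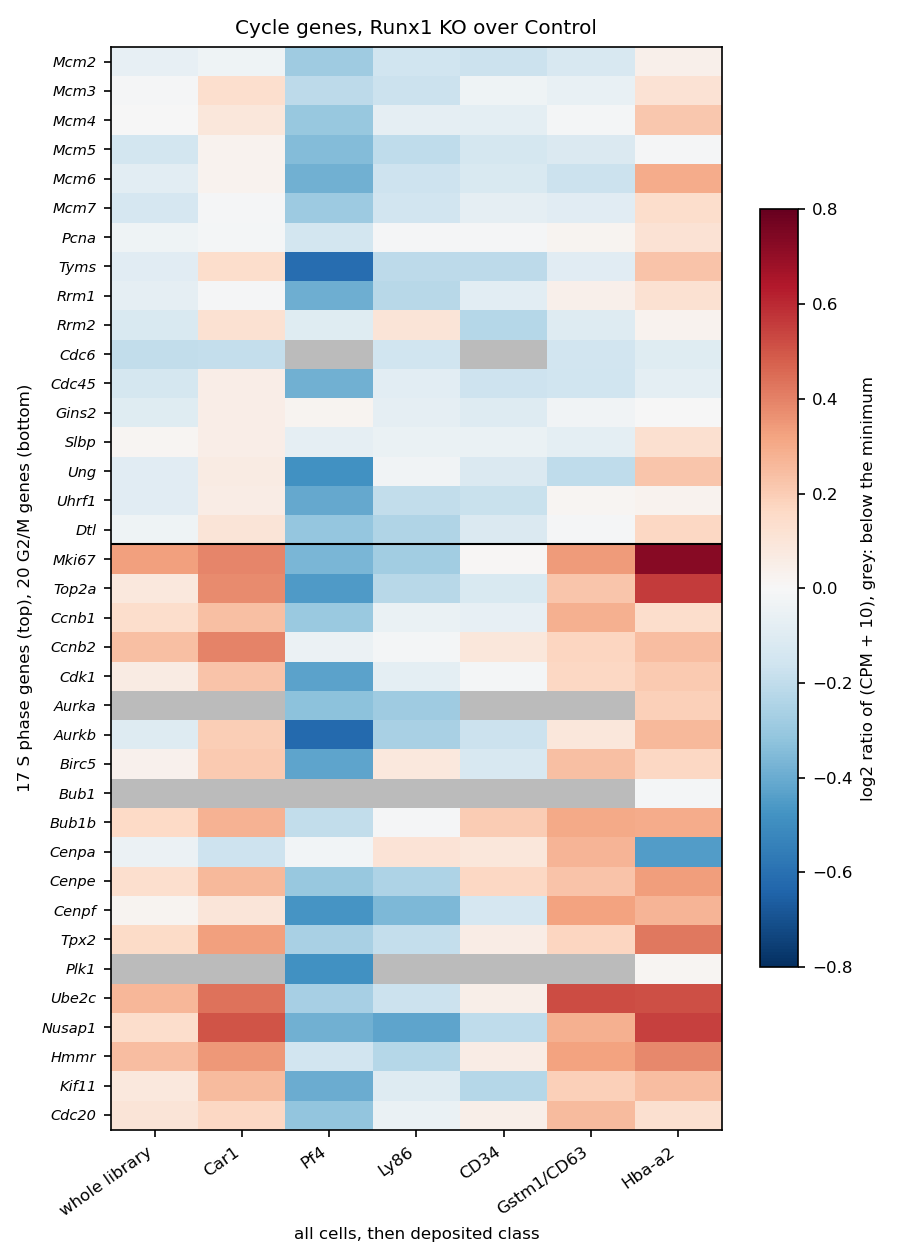
Log2 ratio of CPM + 10, Runx1 KO over Control, for each of the 37 genes (rows, S phase above the line) over all cells and in 6 classes (columns). Red is higher and blue lower in the KO-labelled library, and grey marks genes below the minimum; the blue Pf4 column, the red G2/M blocks of Car1, Gstm1/CD63 and Hba-a2, and Cenpa (-0.45) among red Hba-a2 entries stand out.

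In the Hba-a2 class, the haemoglobin-making erythroid cells, both lists took a larger share of RNA than in any other compared class, and the G2/M genes a larger share in the KO-labelled library. G2/M genes summed to 3465 CPM in KO-labelled and 2774 CPM in Control cells, a ratio of 1.249 (1.23 to 1.27), and S phase genes to 3112 and 2867 CPM (1.09, 1.07 to 1.10). All 20 G2/M genes were measured, 18 above 0, beside 46.4% of all measured genes in the class. Mki67 had 597 CPM in the KO-labelled and 356 CPM in the Control cells (1.68, 1.62 to 1.74), and was the 1 member at least 1.5-fold higher by CPM + 10, beside 1.80% of measured genes. Top2a, which untangles replicated chromosomes, had 482 and 324 CPM (1.49, 1.43 to 1.55), and Nusap1, a microtubule-binding protein, 74.1 and 47.5 CPM (1.56, 1.40 to 1.73). From 0.32 on the log2 scale, 7 G2/M members were higher and 1 lower, and 0 S phase members either way, beside 6.10% of measured genes higher and 4.62% lower. The 1 lower was Cenpa, with 272 CPM in KO-labelled and 375 CPM in Control cells (0.726, 0.693 to 0.760). Bub1 (36.9 and 37.5 CPM) and Plk1 (53.6 and 52.9 CPM) came next. The chromosome proteins Mki67 and Top2a and the centromere histone Cenpa thus stood at opposite ends of 1 list. The further mitosis genes differed less in sum, with a ratio of 1.11 (1.09 to 1.12) and 36 of 42 measured above 0.

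S phase genes of that class were highest for Mcm6 (296 and 239 CPM; 1.24, 1.18 to 1.30), Tyms, which makes thymidylate (181 and 153 CPM), and Ung, which removes uracil from DNA (58.7 and 48.8 CPM). They were lowest for Cdc6 (89.3 and 96.2 CPM), Cdc45 (50.4 and 53.6 CPM) and Mcm5 (217 and 218 CPM). Slbp had the most UMIs of the list (314 and 286 CPM), Pcna had 186 and 171 CPM and Cdk1 188 and 162 CPM. Cells of this class had a median of 37146 UMIs in the KO-labelled library and 51294.5 in Control. Thinned to 5000 UMIs per cell, the S phase log2 ratio was 0.022 in place of 0.12, and that of G2/M was 0.36 in place of 0.32. Their mature neutrophil markers summed to 850 and 71.4 CPM and their megakaryocyte markers to 152 and 14.8 CPM, and the part of either in these differences was not tested.

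In the Car1 class the G2/M genes were higher in the KO-labelled library nearly throughout, while the size of the S phase difference depended on the cells and the weighting used. G2/M genes summed to 2203 CPM in KO-labelled and 1796 CPM in Control cells (1.23, 1.22 to 1.24). Of these genes 16 of 17 measured lay above 0, as did 47.9% of all measured genes in the class. By 0.32 or more (log2), 7 of them were higher, beside 9.02% of measured genes higher and 6.77% lower. The further mitosis genes had a sum ratio of 1.12 (1.11 to 1.12), with 26 of 32 measured above 0. Nusap1 had 76.8 and 51.4 CPM (1.495, 1.42 to 1.57), Ube2c 182 and 132 CPM (1.38, 1.33 to 1.42) and Ccnb2, a B-type cyclin, 93.9 and 69.0 CPM (1.36, 1.30 to 1.42). Mki67 had 350 and 264 CPM, Top2a, with the most UMIs of the list, 381 and 291 CPM, and Cdk1 130 and 110 CPM. Cenpa was again at the other end, with 159 CPM in KO-labelled and 179 CPM in Control cells (0.886, 0.859 to 0.914), next to Cenpf (87.3 and 80.9 CPM) and Cdc20, which activates the anaphase-promoting complex (72.2 and 63.1 CPM).

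The S phase sum of the Car1 class was 1983 CPM in KO-labelled and 1917 CPM in Control cells (1.03, 1.02 to 1.04). Tyms (135 and 121 CPM), Mcm3 (232 and 210 CPM) and Rrm2, a subunit of ribonucleotide reductase (78.2 and 71.3 CPM), were highest. Cdc6 (34.2 and 40.5 CPM), Mcm2 (126 and 130 CPM) and Pcna (106 and 107 CPM) were lowest, and Mcm6 had the most UMIs (243 and 238 CPM). Cells with at least 1000 CPM of 9 megakaryocyte markers were 27.1% of the KO-labelled and 6.38% of the Control cells of the class. Without them the S phase log2 ratio was -0.0061 in place of 0.05, and that of G2/M stayed at 0.29. The S phase log2 ratio was 0.13 as a mean share over cells and 0.14 after thinning to 5000 UMIs. Leaving out cells with more than 2 times the median UMIs of their class, where doublets would lie, it was 0.17. The G2/M log2 ratio was then 0.62. Cells rich in both lists were deep too. Control cells with 10 or more UMIs of each list after thinning had a median of 27942.5 UMIs, and those below 10 for each list 11555.5. Of thinned cells, 2690 of 2921 KO-labelled and 1712 of 2097 Control cells were kept. The part of this unequal removal in the ratios was not tested. Erythroid markers of the class summed to 787 CPM in KO-labelled and 2703 CPM in Control cells. Its mature neutrophil markers summed to 164 and 32.4 CPM, and the part of either in the differences of the class was not tested.

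In Gstm1/CD63, the neutrophil progenitor class, the G2/M list was higher and the S phase list lower in the KO-labelled library. The G2/M sum was 1341 CPM in KO-labelled and 1097 CPM in Control cells (1.22, 1.199 to 1.246), and all 17 measured genes lay above 0, as did 56.4% of all measured genes in the class. Ube2c had 117 and 78.6 CPM (1.49, 1.39 to 1.60), Mki67 99.6 and 76.6 CPM (1.30, 1.21 to 1.40), and Cenpf 45.8 and 34.6 CPM (1.32, 1.19 to 1.47). The smallest differences were those of Aurkb (47.1 and 43.5 CPM), Cdk1 (110 and 96.5 CPM) and Tpx2, a spindle assembly factor (49.4 and 42.9 CPM). Top2a had the most UMIs of the list (202 and 172 CPM). At 0.32 (log2), 3 G2/M members were higher and no member was lower, beside 3.79% of measured genes higher and 3.09% lower. The further mitosis genes differed less, with a sum ratio of 1.05 (1.03 to 1.06) and 14 of 22 measured above 0. S phase genes summed to 1592 and 1698 CPM (0.938, 0.923 to 0.953), with 14 of 17 below 0. Ung (64.4 and 75.5 CPM), Mcm6 (196 and 222 CPM) and Cdc45 (32.7 and 37.8 CPM) were lowest, while Rrm1, the large subunit of ribonucleotide reductase (91.6 and 88.8 CPM), Pcna (86.0 and 84.7 CPM) and Uhrf1, which reads newly copied methylated DNA (58.4 and 57.6 CPM), were slightly above 0. Summed markers of monocyte progenitors were 79.5 CPM in KO-labelled and 379 CPM in Control cells of the class, and those of megakaryocytes 212 and 46.7 CPM. Their part in the differences was not tested beyond leaving out cells high in megakaryocyte markers, which gave a G2/M log2 ratio of 0.25 in place of 0.29. The smaller Gstm1/Ly86 class, with 137 KO-labelled and 306 Control cells, did not share the G2/M rise. Its G2/M ratio was 0.953 (0.920 to 0.9875), with 7 measured genes above and 10 below 0.

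In the Pf4 class, the megakaryocyte-like cells, nearly every cycle gene was lower in the KO-labelled library. S phase genes summed to 1545 CPM in KO-labelled and 1928 CPM in Control cells (0.801, 0.783 to 0.820), with 15 of 16 measured genes below 0. G2/M genes summed to 1934 and 2492 CPM (0.776, 0.760 to 0.793), with 19 of 19 below 0. Of all measured genes in the class, 51.7% were below 0. Tyms, with 88.8 CPM in KO-labelled and 140 CPM in Control cells (0.632, 0.578 to 0.692), and Aurkb, with 46.5 and 76.9 CPM (0.605, 0.535 to 0.685), were at least 1.5-fold lower, beside 3.38% of measured genes. At 0.32 (log2), 7 S phase and 10 G2/M members were lower and 0 higher, beside 14.5% of measured genes lower and 15.9% higher. Next in line were Ung (42.9 and 64.0 CPM) and Uhrf1 (57.6 and 79.6 CPM), and in the G2/M list Plk1 (28.0 and 43.2 CPM) and Cenpf (96.0 and 137 CPM). Mki67 had 249 and 324 CPM, Cdk1 121 and 167 CPM and Top2a 273 and 377 CPM.

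The members of the Pf4 class that differed least were Gins2, a partner of the helicase (37.2 and 36.4 CPM), Slbp (163 and 172 CPM) and Rrm2 (51.8 and 56.0 CPM), and on the G2/M side Cenpa (138 and 140 CPM), Ccnb2 (111 and 116 CPM) and Hmmr (62.8 and 70.9 CPM). Pcna had 89.2 and 100 CPM. Mcm6 had the most S phase UMIs in Control (195 CPM KO-labelled, 258 CPM Control) and Mcm3 in the KO-labelled cells (209 and 244 CPM). The further genes were also mostly lower, 35 of 36 measured replication genes and 32 of 34 mitosis genes, beside 51.7% of all measured genes. Median UMIs were 13028.5 per KO-labelled and 18341.5 per Control cell of the class. Mature neutrophil markers summed to 146 CPM in KO-labelled and 28.4 CPM in Control cells, and erythroid markers to 189 and 112 CPM, and their part in the differences was not tested. Only 222 Control cells stood behind these values.

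In the Ly86 class, named by a monocyte gene, KO-labelled cells had lower sums of both lists. The size of the G2/M difference depended on how cells were weighted. S phase genes summed to 1831 CPM in KO-labelled and 2017 CPM in Control cells (0.908, 0.895 to 0.920, with 16 of 17 below 0). G2/M genes summed to 1703 and 1901 CPM (0.896, 0.883 to 0.909, with 16 of 18 below 0). Of all measured genes in the class, 51.1% were below 0. Nusap1 (42.5 and 60.3 CPM; 0.705, 0.645 to 0.771) and Cenpf (62.4 and 82.9 CPM; 0.753, 0.699 to 0.811) were the 2 members lower by 0.32 or more (log2), beside 3.59% of measured genes lower and 4.99% higher. Aurka followed (24.3 and 31.8 CPM). Cenpa (135 and 125 CPM), Birc5, the survivin of the passenger complex (193 and 181 CPM), and the checkpoint kinase Bub1b (42.3 and 42.7 CPM) were highest. Among S phase genes Dtl, which targets licensing factors for degradation (56.0 and 67.9 CPM), Rrm1 (106 and 126 CPM) and Tyms (106 and 124 CPM) were lowest. Rrm2 (130 and 120 CPM), Pcna (103 and 104 CPM) and Ung (63.8 and 65.3 CPM) were highest. Mki67 had 154 and 188 CPM, Cdk1 123 and 131 CPM, Mcm6 211 and 238 CPM and Top2a 292 and 343 CPM. The G2/M log2 ratio of the class was -0.16 from summed UMIs, but -0.061 as a mean share over cells and -0.052 after thinning, while that of S phase was -0.14, -0.20 and -0.19. The median cell gave 0.103% of its UMIs to G2/M genes in the KO-labelled and 0.095% in the Control library. Monocyte progenitor markers of the class summed to 987 CPM in KO-labelled and 1194 CPM in Control cells. Mature neutrophil markers summed to 491 CPM in KO-labelled and 24.2 CPM in Control cells, neutrophil progenitor markers to 15003 and 11465 CPM, megakaryocyte markers to 143 and 42.7 CPM, and lymphoid and dendritic markers to 17.4 and 65.2 CPM. Leaving out cells high in megakaryocyte or basophil markers gave a G2/M log2 ratio of -0.13, and the part of the other markers was not tested.

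In the CD34 class all 16 measured S phase genes were lower in the KO-labelled library, by little, and G2/M genes were split. The S phase sum was 1742 CPM in KO-labelled and 1888 CPM in Control cells (0.923, 0.908 to 0.939), and no member of either list passed 0.32 (log2), beside 6.54% of measured genes higher and 4.61% lower. Rrm2 (59.6 and 71.4 CPM), Tyms (105 and 123 CPM) and Uhrf1 (66.0 and 76.0 CPM) were lowest, and Pcna (100 and 101 CPM), Mcm3 (216 and 222 CPM) and Slbp (142 and 147 CPM) highest. The G2/M sum was 1614 and 1648 CPM (0.980, 0.963 to 0.997), with 9 genes above and 8 below 0. Of all measured genes in the class, 49.5% were above and 50.5% below 0. Bub1b (44.1 and 36.99 CPM), Cenpe, a kinetochore motor (64.5 and 56.4 CPM), and Ccnb2 (82.7 and 77.1 CPM) were highest, and Kif11, the motor that parts the spindle poles (44.4 and 53.6 CPM), Nusap1 (48.9 and 57.7 CPM) and Aurkb (48.1 and 55.5 CPM) lowest. Mki67 had 172 and 171 CPM, Cdk1 109 and 110 CPM, Top2a 275 and 300 CPM and Mcm6 223 and 243 CPM. Cells with at least 1000 CPM of 5 basophil and mast cell markers made up 52.0% of the KO-labelled and 28.5% of the Control cells of the class. Without them the G2/M log2 ratio turned from -0.03 in all cells of the class to 0.093. Cells with at least 1000 CPM of megakaryocyte markers made up 20.2% of KO-labelled and 2.70% of Control cells. Without either kind of cell the G2/M log2 ratio was 0.22. Monocyte progenitor markers summed to 59.7 CPM in KO-labelled and 137 CPM in Control cells, and mature neutrophil markers to 113 and 44.4 CPM. The part of these other markers was not tested.

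**Figure D3:**
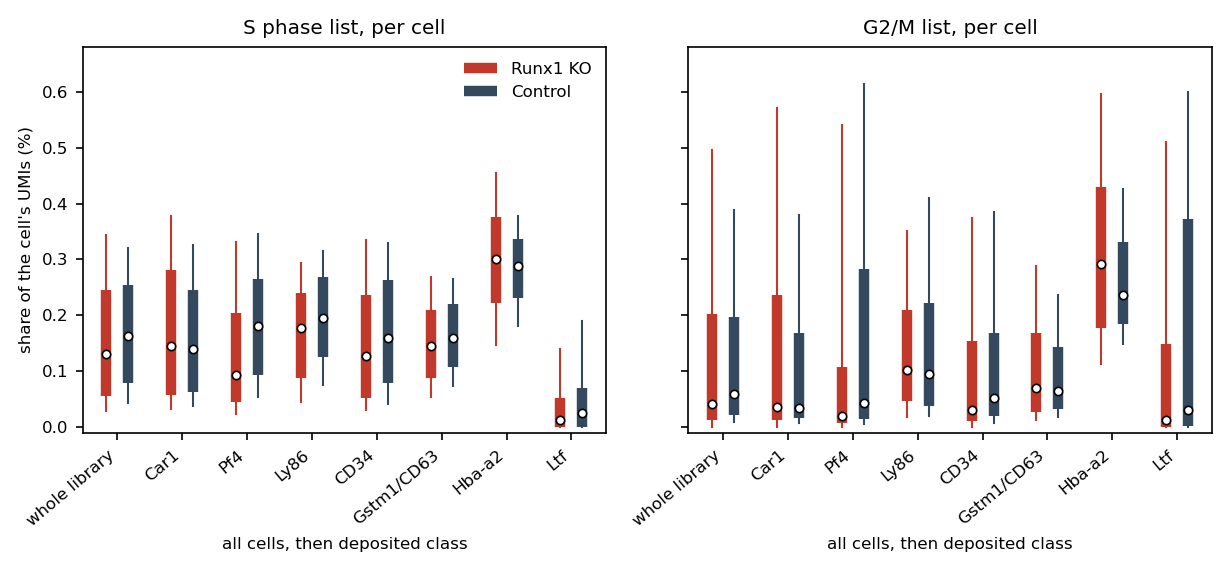
Share of a cell's UMIs (%) taken by S phase genes (left) and G2/M genes (right) in KO-labelled (red) and Control (dark) cells, over all cells and by class. White points are medians, thick bars run between the 25th and 75th and thin lines between the 10th and 90th percentiles of cells; over all cells the G2/M median is lower but the 90th percentile higher in the KO-labelled library.

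Per cell and over all classes pooled, the KO-labelled library was spread more widely, with more cells at very low and more at very high G2/M content. The median cell gave 0.041% of its UMIs to G2/M genes in the KO-labelled library and 0.059% in Control, yet the 90th percentile was 0.495% and 0.388%. The S phase median was 0.131% and 0.163%, and the 90th percentile 0.344% and 0.321%. The classes differed in share, with Pf4 at 22.6% of KO-labelled and 3.21% of Control cells. The G2/M 90th percentile was higher in KO-labelled than in Control cells of Car1 (0.571% and 0.379%), Gstm1/CD63 (0.288% and 0.236%) and Hba-a2 (0.596% and 0.427%). It was lower in KO-labelled cells of Pf4 (0.540% and 0.615%), Ly86 (0.351% and 0.410%) and CD34 (0.375% and 0.385%). To set aside depth, each cell with at least 5000 UMIs was thinned to 5000, which left out 346 KO-labelled and 465 Control cells, and a cell with 10 or more UMIs of a list was called high for it. S-high cells made up 35.5% (34.4 to 36.6) of the KO-labelled and 40.6% (39.4 to 41.8) of the Control cells. G2/M-high cells made up 26.3% (25.4 to 27.4) and 24.9% (23.8 to 25.9). These are ranges of a score, not phases, and 17.2% of KO-labelled and 21.5% of Control cells lay at 8 to 11 S phase UMIs. With 20 or more UMIs required, the S phase order turned to 7.08% against 5.12%, and G2/M stood at 14.0% against 10.2%. With 5 or more, G2/M turned to 37.6% of KO-labelled and 40.8% of Control cells.

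**Figure D4:**
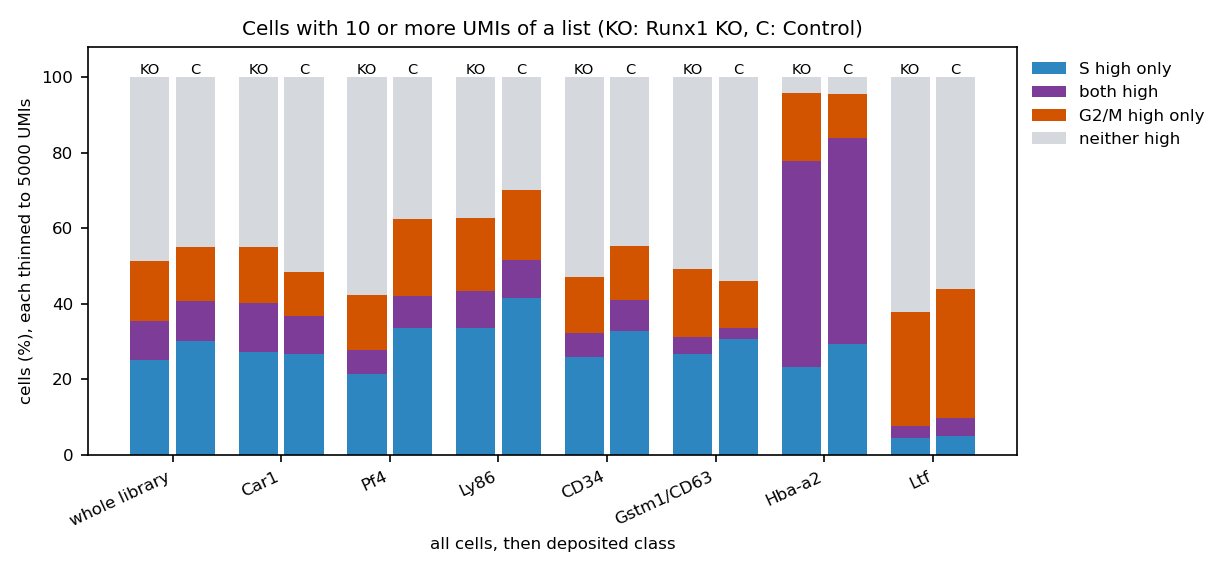
Percent of cells, thinned to 5000 UMIs, with 10 or more UMIs of S phase genes only (blue), of both lists (purple), of G2/M genes only (orange) or of neither (grey), in the KO-labelled library (KO, left bar) and in Control (C, right bar) of all cells and of each class. The Pf4 bars differ most among the compared classes, with 57.8% of KO-labelled and 37.6% of Control cells high for neither list.

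The classes again took different sides. G2/M-high cells were 27.6% (26.0 to 29.3) of KO-labelled and 21.8% (20.04 to 23.6) of Control cells in Car1, and 22.7% (19.5 to 26.1) and 15.5% (12.7 to 18.7) in Gstm1/CD63. In Hba-a2 they were 72.8% (67.3 to 77.8) and 66.2% (60.2 to 71.8), in Ly86 29.2% (25.4 to 33.2) and 28.7% (26.2 to 31.4), and in CD34 21.1% (18.1 to 24.4) and 22.5% (19.9 to 25.2), with overlapping intervals in these 3 classes. In Pf4, 20.8% (18.9 to 22.8) of KO-labelled and 28.8% (22.7 to 35.5) of Control cells were G2/M-high, with intervals that just overlapped. There, 27.7% (25.6 to 29.9) of KO-labelled and 42.0% (35.1 to 49.0) of Control cells were S-high. S-high cells were also fewer in Ly86, 43.4% (39.2 to 47.7) of KO-labelled and 51.7% (48.8 to 54.5) of Control cells, and in CD34, 32.2% (28.7 to 35.9) and 40.9% (37.8 to 44.0). In Car1 they were 40.1% (38.3 to 41.9) of KO-labelled and 36.6% (34.6 to 38.7) of Control cells, and in Gstm1/CD63 31.2% (27.7 to 34.95) and 33.5% (29.7 to 37.5). The S-high intervals of the libraries overlapped in Car1 and in Gstm1/CD63. In Hba-a2 the S-high share was 77.9% (72.7 to 82.5) of KO-labelled and 83.8% (78.9 to 88.0) of Control cells, with overlapping intervals. The S phase sum of that class stood the other way round, and 21.1% of KO-labelled and 15.4% of Control cells had 20 or more S phase UMIs.

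Cells with 2 or fewer UMIs of each list, out of 5000, were 16.47% (15.6 to 17.3) of the KO-labelled and 10.7% (9.92 to 11.4) of the Control library, a cut chosen after values were seen. In Pf4 they were 22.6% (20.6 to 24.6) of KO-labelled and 5.85% (3.06 to 10.0) of Control cells, and in CD34 20.2% (17.2 to 23.5) and 10.6% (8.81 to 12.7). In Ly86 they were 5.55% (3.77 to 7.82) and 2.83% (1.98 to 3.92), with intervals that just overlapped. In Car1 they were 16.8% (15.5 to 18.3) and 15.0% (13.5 to 16.6), and in Gstm1/CD63 5.05% (3.504 to 7.02) and 3.70% (2.34 to 5.55), with overlapping intervals. Hba-a2 held 1 such KO-labelled cell of 294 and 0 of 272 Control cells. Here too, overlap of intervals is no test between genotypes. Without cells high in megakaryocyte or basophil markers the CD34 shares were 11.4% of KO-labelled and 9.01% of Control cells, and the whole-library shares 13.9% and 8.67%. The Car1 shares were then 19.3% and 14.8%. Cells low for both lists had a median of 10774.5 UMIs in the KO-labelled library and 11268 in Control before thinning, and cells high for both 23384 and 34111.5.

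**Figure D5:**
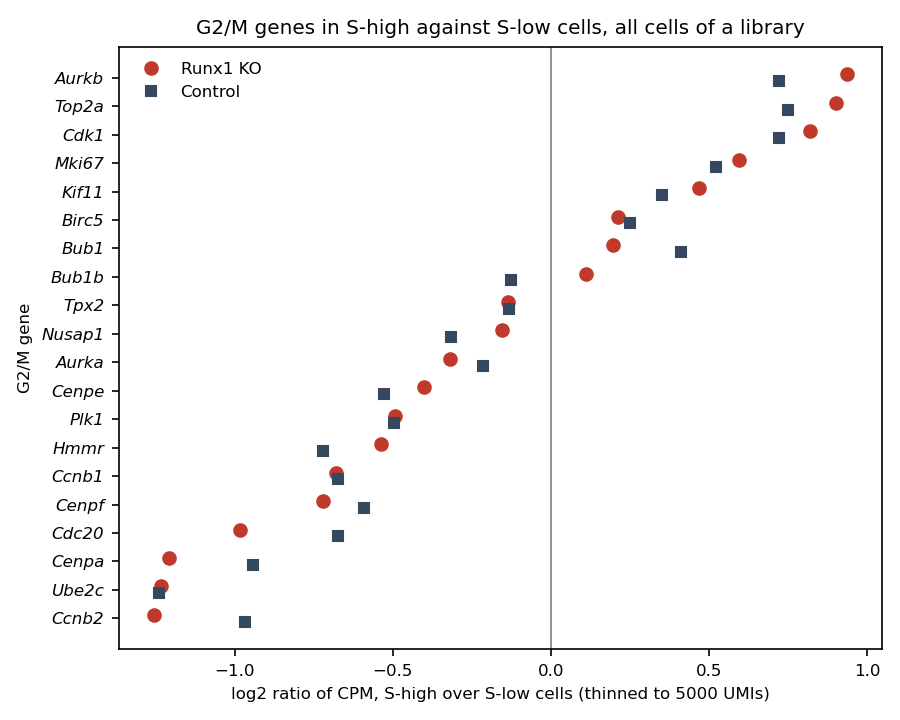
Log2 ratio of thinned CPM in S-high over S-low cells for the 20 G2/M genes, over all cells of the KO-labelled library (red circles) and of Control (dark squares), sorted by the KO-labelled value. Aurkb, Top2a, Cdk1, Mki67 and Kif11 lie right of 0 and Ccnb2, Ube2c, Cenpa and Cdc20 far left of it in both libraries.

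Over all cells of a library, G2/M genes differed from each other in their level in S-high relative to S-low cells. The S-low group can hold resting cells as well as cells past S phase, which these counts do not part. In S-high cells of the KO-labelled library (2679, against 4864 S-low cells) and of Control (2616, against 3825), the summed G2/M level was close to that of S-low cells, with ratios of 0.994 and 0.975. Within that sum, Aurkb (1.91 KO-labelled, 1.65 Control), Top2a (1.87 and 1.68), Cdk1 (1.76 and 1.65), Mki67 (1.51 and 1.43) and Kif11 (1.38 and 1.28) were higher in S-high cells. Ube2c (0.425 and 0.423), Ccnb2 (0.419 and 0.512), Cenpa (0.433 and 0.520), Cdc20 (0.506 and 0.626), Cenpf (0.606 and 0.663) and Ccnb1, the main mitotic cyclin (0.624 and 0.628), were lower. Top2a had 358 CPM in S-high and 192 CPM in S-low KO-labelled cells, and 305 and 181 CPM in Control. Ube2c had 69.7 CPM in S-high and 164 CPM in S-low KO-labelled cells, and 60.5 and 143 CPM in Control. Both groups held genes with CHR letters upstream: Top2a, Cdk1 and Mki67 on the one side and Cdc20 on the other carry TTTGAA on one strand or the other, as printed above. These ratios pool all classes, and class by class the G2/M sum did not stay close between S-high and S-low cells. Its ratio was 0.921 in KO-labelled and 1.199 in Control cells of Car1, 0.897 and 0.536 in Pf4, 0.770 and 0.581 in Ly86, 0.921 and 0.766 in CD34, 0.846 and 0.830 in Gstm1/CD63, and 0.770 and 0.828 in Hba-a2. Single genes also changed sides between the libraries within a class. Within Hba-a2, where 65 KO-labelled and 44 Control cells were S-low, Top2a was instead lower in S-high cells (0.702 and 0.874), as was Cdk1 (0.852 and 0.722). Within KO-labelled Pf4 cells (470 S-high, 1228 S-low) the ratio was 1.40 for Mki67 and 1.70 for Cdk1, while within Control Pf4 cells (86 S-high, 119 S-low) Mki67 stood at 0.6002 and Cdk1 at 0.861. Within Ly86 the ratio was 1.09 in KO-labelled and 0.790 in Control cells for Mki67, and 1.10 and 0.806 for Kif11.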

How the data were processed

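Droplet libraries of sorted marrow progenitors were made with the 10x Genomics 3′ kit, version 3, per the labels' protocols. Cell Ranger and mm10 are named in the submitters' processing notes, with versions not given in the sources used here. A deposited matrix holds raw counts, unique molecular identifiers per gene and cell, and the deposited annotation gives counts per cell, a mitochondrial fraction, a size factor (a ratio), the library name and a class; how the authors drew these classes was not stated in the sources used here. Matrix sums equalled the annotated counts in all 14795 cells. The library named wild type in the annotation was taken as Control.

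UMIs were summed per library and class and given per 1000000 (CPM). Ratios carry exact conditional Poisson and shares exact Clopper-Pearson 95% intervals. Log2 differences used a pseudocount of 10 CPM. Thinning drew 5000 UMIs per cell without replacement under a fixed seed. Classes needed 200 cells in each library. Ratios and intervals were tested on simulated Poisson counts, and thinning on a simulated cell. Those counts hold no variation between cells or animals, so this checked the computation only. No doublet caller was run; cells above 2 times their class's median UMIs were left out as an alternative. Fully described were, in the whole library and each class, the 3 highest and 3 lowest log2 differences of each list, the gene with the most UMIs, and Mki67, Pcna and Cdk1; of the further pathway lists, the 2 highest and 2 lowest. Members and lists were chosen with earlier results of these data known. Promoter sequences are RefSeq's, on GRCm38.p6; gene coordinates are those of GENCODE M21 on GRCm38. The tools were Python 3.11.15, numpy 2.4.6, scipy 1.17.1, pandas 2.3.3 and matplotlib 3.10.9.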

Additional observations from a re-analysis of the deposited data

Results flagged for a closer look

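The G2/M sum went opposite ways in the Hba-a2 class and the Pf4 class. The log2 ratio of the KO-labelled over the Control library was 0.32 in Hba-a2 and -0.37 in Pf4, a difference of 0.69. With 1 library per genotype this difference was not tested.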

How the results depend on the processing

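Sums of each list kept their direction in the whole library under all 11 alternatives, between -0.11 and -0.048 (log2) for S phase and between 0.10 and 0.17 for G2/M. The S phase sum, -0.08, was -0.10 as a mean share over cells, -0.065 without cells above 2 times their class's median UMIs, -0.054 without cells high in megakaryocyte markers and -0.11 without cells high in basophil markers. With classes weighted by Control UMIs it was -0.048 and by Control cells -0.054. The G2/M sum, 0.13, was 0.15 as a mean share, 0.17 thinned, 0.15 without cells above 2 times the median, and 0.11 and 0.10 with the class weights. Within classes, the S phase sum of Car1, 0.05, changed sign, to -0.0061 without cells high in megakaryocyte markers and -0.034 also without those high in basophil markers, and was 0.13 as a mean share, 0.14 thinned and 0.17 without cells above 2 times the median. Thinned, the S phase sum of Hba-a2 was 0.022 in place of 0.12 and the G2/M sum of Ly86 -0.052 in place of -0.16. The G2/M sum of CD34 changed sign, to 0.093 without cells high in basophil markers and 0.22 without either kind. Without cells high in megakaryocyte markers, alone or with those high in basophil markers, 1 class had a higher S phase sum in place of 2, of 5 with a value, since Pf4 kept under 50 cells. Members past the fold were 1 higher at 0.32 (log2) in place of 0 at 1.5-fold. S-high shares were 61.8% (KO-labelled) and 69.3% (Control) at 5 UMIs and 7.08% and 5.12% at 20. G2/M-high shares were 37.6% and 40.8% at 5, and 14.0% and 10.2% at 20. Without cells above 2 times the median, G2/M-high shares were 24.4% and 22.3%, and the Control S-high share was 39.3%. Alternatives on basophil markers, on Control UMI weights and on cells low for both lists were chosen after seeing the data, and the causes of these changes were not tested. No paired analysis was possible because each genotype had 1 library. In Car1, the share of cells low for both lists was 18.3% in both libraries without cells above 2 times the median, and 23.6% (KO-labelled) and 24.0% (Control) at 3 or fewer UMIs. It differed more without cells high in megakaryocyte or basophil markers, at 19.3% (KO-labelled) and 14.8% (Control) in place of 16.8% and 15.0%.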

Other observations

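The Ltf class, named by a granule gene of maturing neutrophils, had little S phase RNA beside much G2/M RNA. Its 221 KO-labelled and 50 Control cells held 711 and 955 CPM of S phase genes, but 2168 and 2752 CPM of G2/M genes, which made the G2/M UMIs 3.05 and 2.88 times the S phase UMIs. Ube2c stood at 388 CPM in the KO-labelled and 457 CPM in the Control cells, and Top2a at 255 and 312 CPM. Among thinned cells 33.3% (26.0 to 41.3) of KO-labelled and 39.0% (24.2 to 55.5) of Control cells were G2/M-high, and 7.69% and 9.76% S-high. Thinning left out 65 KO-labelled and 9 Control cells of the class. Many cells held little of either list, as 54.5% of KO-labelled and 41.5% of Control thinned cells had 2 or fewer UMIs of each. The median G2/M share per cell was 0.012% and 0.030%. Mature neutrophil markers summed to 346343 and 350359 CPM there. This class was meant to give a background level and cannot do so.

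In the Unannotated class, with 175 KO-labelled and 143 Control cells, the sums of the lists went opposite ways. S phase genes summed to 980 CPM in the KO-labelled and 1219 CPM in the Control library (0.803, 0.755 to 0.854), and G2/M genes to 2208 and 1594 CPM (1.39, 1.32 to 1.45). The median G2/M share per cell was 0.0273% in KO-labelled and 0.0266% in Control cells, and the 90th percentile 0.642% and 0.412%. G2/M-high were 19.35% (13.46 to 26.46) of KO-labelled and 17.97% (11.74 to 25.73) of Control cells, with overlapping intervals. S phase medians of the class were 0.0657% in KO-labelled and 0.0602% in Control cells, the other way round from the sum. Its cells differed in kind between the libraries, with megakaryocyte markers at 1547 CPM in KO-labelled and 215 CPM in Control cells, lymphoid and dendritic markers at 4.21 and 1552 CPM, and monocyte progenitor markers at 6.32 and 297 CPM, and the part of this in the ratios was not tested. In the Fcnb class, of later neutrophil progenitors by name, both lists were close, with ratios of 0.952 (0.923 to 0.981) and 0.959 (0.925 to 0.994). The Cd74 class held 56 Control cells whose G2/M UMIs were 3.56 times their S phase UMIs, and 43.1% of its thinned Control cells were G2/M-high.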
